A study of Mus musculus with 6 samples.

Results

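Chemokines are small secreted proteins that guide the movement of leukocytes, and chemokine receptors are the G protein-coupled receptors that read them. All 62 chemokine and chemokine receptor genes of the count tables were followed here, of 53647 genes in all. They were chosen by gene symbol (Ccl, Cxcl, Cx3cl and Xcl for ligands, Ccr, Cxcr, Cx3cr, Xcr and Ackr for receptors), with pseudogenes left out, and no measured value entered the choice. The set holds 39 ligands, 19 signalling receptors and 4 atypical receptors (Ackr genes). By gene identifier, 61 of the 62 were placed in the GENCODE M21 annotation of GRCm38. Of these, 14 lie on chromosome 11, 14 on chromosome 9 and 11 on chromosome 5, where C-C ligands, receptors and C-X-C ligands stand in rows of neighbours. The questions were which cell types of the proximal pulmonary artery (PA) hold the ligands, which hold the receptors, and how the levels compare between old and young mice.

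C-C and C-X-C ligands are named after the spacing of their first cysteines. Several C-C ligands made by macrophages (MΦs) draw monocytes through Ccr2, several C-X-C ligands draw neutrophils through Cxcr2, and Cxcl12 holds cells that carry Cxcr4 in stromal niches. Atypical receptors bind chemokines without the usual G protein signal, and clear or store them, so that they shape where the ligands reach.

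Single cell RNA sequencing of proximal PAs from C57BL/6J mice gave 6 libraries, 2 young and 4 old, each from an artery excised with some surrounding tissue and digested with collagenase and elastase. Both young libraries were of 3 months, young 1 from a male and young 2 from a female, and the old libraries were old 1 (20 months, male), old 2 (24 months, male), old 3 (28 months, female) and old 4 (27 months, male), with the sexes as the labels and the study's methods give them. By the study's methods, old mice came from a commercial breeder or from an ageing colony and young mice from the breeder, and the source of each library was not given. Each RNA molecule carried a random tag, the unique molecular identifier (UMI), and the UMIs were counted per gene and droplet barcode. A level here is the count of a gene per 1000000 UMIs (CPM) of 1 cell type in 1 library. Droplet counts come from the 3′ end of transcripts, so CPM values of different genes are shares of molecules without a correction for length.

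Depth and quality differed between the libraries. They held from 6355125 to 50436562 UMIs, and from 935 to 4067 barcodes had 500 or more UMIs, 300 or more genes and no more than 20% mitochondrial UMIs. Median UMIs per kept barcode were from 801.5 to 2162 in both young libraries, old 1 and old 2, against 5465 in old 3 and 8150 in old 4. Young 1, young 2 and old 2 shared cell barcodes, 156, 131 and 215 in the 3 pairs against at most 4 in any other pair, so these 3 libraries stand apart as a set that holds both young libraries. Old 1, given as male, held 3113 counts of the female transcript Xist, while the Y-linked gene Ddx3y had 8488, Uty 77, Eif2s3y 25 and Kdm5d 17 counts there. Young 2, given as female, held 1300 counts of Xist beside 210 of Ddx3y, 171 of Uty, 89 of Eif2s3y and 52 of Kdm5d. In both libraries some of these markers thus go against the labelled sex. No value below is drawn from the sex of a library. Free RNA from broken cells reaches every droplet, and its profile was read from barcodes with at most 100 UMIs and is given beside the levels it could set.

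Cells were clustered without the 62 genes, so that a type was not defined by the genes described. After 311 likely doublets were removed, 15311 cells remained, of which 397 stayed in clusters without a name. Fibroblast-like (FB), smooth muscle-like (SMC), mesothelial-like, blood vascular endothelial-like (EC), lymphatic endothelial-like (LEC), B-like, T- and natural killer-like (T/NK), airway epithelial-like, neutrophil-like and erythroid-like cells were named from marker genes. Among myeloid cells these were MΦs with the Lyve1, Folr2 and F13a1 program (perivascular MΦs), MΦs with less of it (Lyve1-low MΦs), MΦs led by Prg4 (Prg4 MΦs), monocytes and dendritic cells (DCs). Antigen presentation (MHC class II) markers were raised in both perivascular and Lyve1-low MΦs. A perivascular cluster with 82 cells of young 1 and 43 of old 2 shared Retnla, Lyz1 and Lyz2 among its top genes with a Lyve1-low cluster. That Lyve1-low cluster held 50 cells of old 3 and 13 of old 4. Whether the border between these classes falls alike in young and old libraries was not tested. Levels are given for the 15 types with at least 10 cells in at least 2 libraries. LECs, Lyve1-low MΦs, monocytes, neutrophils and erythroid cells reached 10 cells in old libraries alone, so that their levels carry no young value.

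Of the 62 genes, 48 were detected, with at least 50 counts over the named cell types. These were 30 ligands, 14 signalling receptors and all 4 atypical receptors. The 14 others held at most 34 counts each, and 4 of them, Ccl21b, Ccl21d, Ccl27b and Ccr1l1, held 0. Ccl21b and Ccl21d are near copies of Ccl21a, and Ccl27b of Ccl27a, so that reads of these genes cannot be told apart with certainty and the values of Ccl21a and Ccl27a may hold reads of their copies. By mean CPM over libraries, myeloid types led 15 of the 30 ligands and 8 of the 18 detected receptors. Stromal types (FBs, SMCs, mesothelial cells) led 6 ligands and 3 receptors, endothelial types 3 and 1, lymphoid types 2 and 4, and airway cells 3 ligands. The remaining ligand and 2 receptors, Cxcl15, Ccr9 and Ccr4, were highest in erythroid cells through 15, 2 and 1 counts in 24 cells of old 2 and 0 in old 3, and are not read further. In 24 of the 48 genes the leading type was the highest in every library that held it. The leading type stood above the free RNA in all 48. No test was made between types, since types of 1 library share their source.

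**Figure D1:**
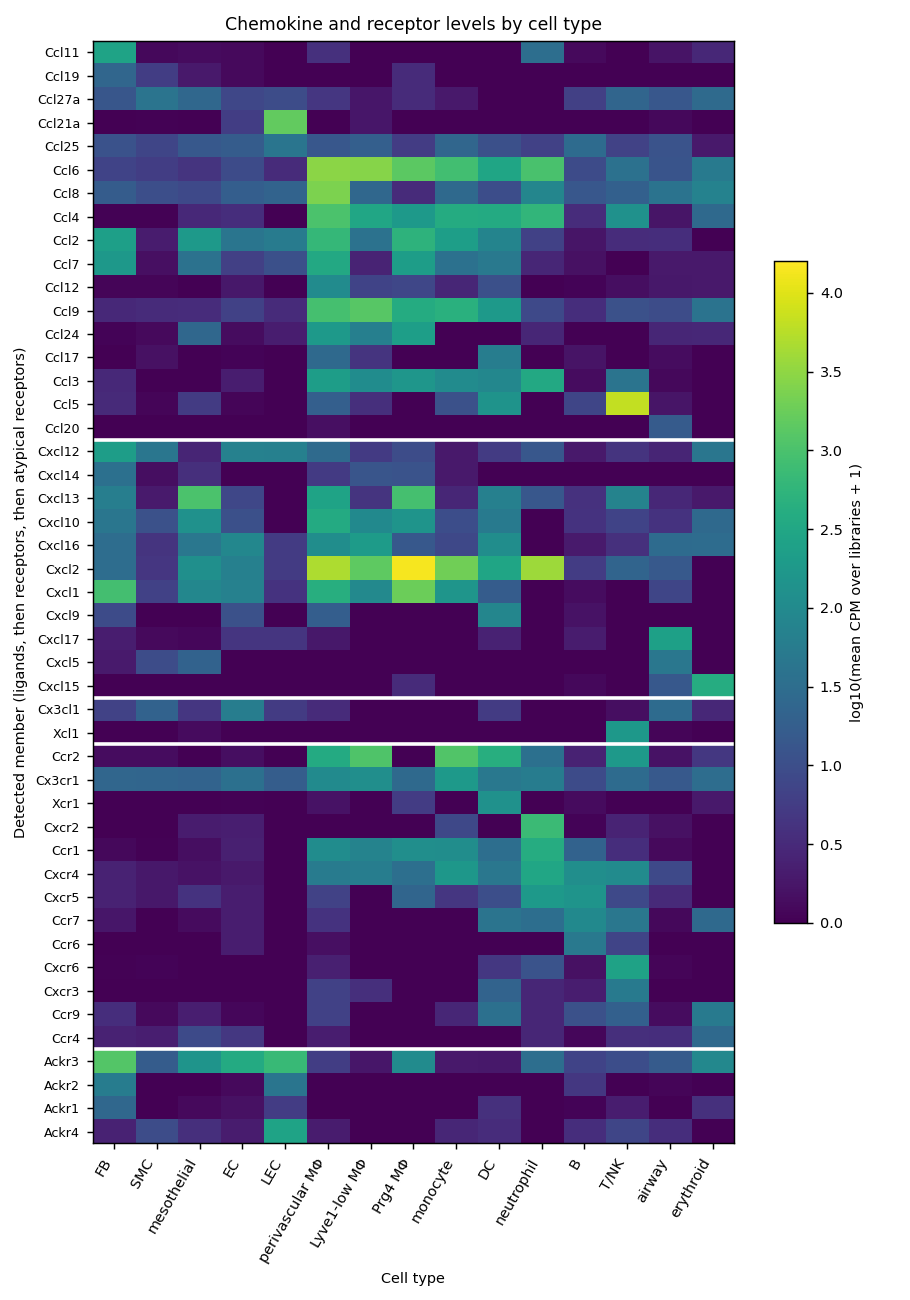
Mean level of 47 of the 48 detected genes (rows, grouped as C-C ligands, C-X-C ligands, C and CX3C ligands, signalling receptors and atypical receptors by the white lines) in each cell type (columns), as log10 of the mean CPM over the libraries with at least 10 cells of the type, plus 1. Bright cells of the ligand rows gather in the myeloid columns, Ccl21a stands out in LECs, Ccl5 in T/NK cells, and the atypical receptors in FBs and LECs.

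Perivascular MΦs were the broadest source of C-C ligands. They led Ccl8, Ccl6, Ccl4, Ccl2, Ccl7 and Ccl12, and the C-X-C ligand Cxcl10, a Cxcr3 ligand induced by interferon, at 374 CPM. Of these, Ccl2, Ccl7, Ccl12 and Ccl8 lie within chr11:82035571-82116799 and Ccl6 and Ccl4 within chr11:83587882-83664683. Ccl6, a ligand of Ccr1, was the steadiest of these, with 4514 and 1279 CPM in the young libraries and 4083, 2483, 2897 and 2403 CPM in old 1 to old 4. Its groups overlapped, and its level in Lyve1-low MΦs, 2709 CPM on average, was close to the 2943 ± 1187 CPM (SD, n = 6) of perivascular MΦs. Ccl9, a further Ccr1 ligand made by myeloid cells, was highest in Lyve1-low MΦs, with 1494 CPM in old 3 and 1117 CPM in old 4. Perivascular MΦs held 920.1 CPM of Ccl9 on average.

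Ccl8, a ligand of Ccr8 in mice, was the member with the most counts, 30536. It was at 2359 ± 4147 CPM (SD, n = 6) in perivascular MΦs, and the next type, neutrophils, held 82.9 CPM on average. Perivascular MΦs held 147 and 192 CPM in young 1 and young 2, and 676, 1664, 10751 and 725 CPM in old 1 to old 4. Each old library was above both young ones, but the value of young 2 rests on 3 counts in 22 cells. Old 3 was the highest by far and also had the highest Ccl8 level in free RNA, 1148 CPM against 9.49 to 90.7 CPM in the other 5 libraries. Every other type of old 3 had some Ccl8, for example 103 CPM in ECs, 45.7 CPM in SMCs and 54.8 CPM in B cells, all below that free RNA level. Lyve1-low MΦs of the same libraries held 49.0 CPM in old 3 and 0 in old 4. The receptor Ccr8 had 9 counts in all, in T/NK cells and neutrophils, and was not detected by the limit used.

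Ccl12, a further Ccr2 ligand of rodents, showed the same order at a lower level. Perivascular MΦs held 29.3 CPM in young 1 and 0 in young 2, where 0 counts of 15639 UMIs allow up to 192 CPM by counting error. The old libraries held 166, 190.4, 165 and 91.8 CPM. The young 1 value was below all old ones, and young 2 was too shallow to place. Ccl24, a ligand of the eosinophil receptor Ccr3, was highest in Prg4 MΦs, at 181, 307 and 184.5 CPM in young 1, young 2 and old 2. In perivascular MΦs it was at 67.5 and 128 CPM in the young and 156, 199, 105 and 482 CPM in the old libraries, so that its groups overlapped.

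Ccl2, the main ligand of Ccr2, was highest in perivascular MΦs at 616 ± 419 CPM (SD, n = 6), followed by Prg4 MΦs and FBs at 528 and 233 CPM. In perivascular MΦs it was 742 and 512 CPM in the young libraries and 1318, 712, 116 and 299.8 CPM in old 1 to old 4. Old values lay on both sides of the young ones. Ccl7, its neighbour with the same receptor, followed the same order of types, at 339, 214 and 171 CPM. Ccl4 was at 1132 and 1279 CPM in the young libraries and at 2884, 728, 17.1 and 69.6 CPM in the old ones.

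Cxcl2 and Cxcl1, which draw neutrophils through Cxcr2, had their highest mean CPM in Prg4 MΦs. These cells were found in the 3 libraries with shared barcodes, with 15, 35 and 91 cells, and with 0 cells in the other 3. Cxcl2 was at 16027, 13108 and 12015 CPM there in young 1, young 2 and old 2, the highest level of any member in any type. In perivascular MΦs Cxcl2 was at 7904 and 4220.2 CPM in the young libraries, 7113 and 8086 CPM in old 1 and old 2, 83.3 CPM in old 3 and 1592 CPM in old 4. Cxcl1 was at 1028, 2407 and 1920.5 CPM in Prg4 MΦs of the same 3 libraries. In perivascular MΦs it ran from 241 to 804 CPM in young 1, young 2, old 1 and old 2, and was 0.78 CPM in old 3 and 68.8 CPM in old 4. In FBs, which were second for Cxcl1, it was 1363 and 765 CPM in the young libraries and 686, 2366, 8.49 and 81.9 CPM in old 1 to old 4. FBs were above Prg4 MΦs in young 1 and old 2, so that Prg4 MΦs led Cxcl1 in 1 of their 3 libraries. The means of the 2 types thus cover unlike sets of libraries. Old 3 was thus the lowest library for Cxcl2, Cxcl1 and Ccl4 in perivascular MΦs and for Cxcl1 in FBs, and old 4 the second lowest. A list of 14 immediate early genes (Fos, Jun, Egr1 and others, which cells switch on within minutes of stress), chosen after these values were seen, summed to 2924 CPM in perivascular MΦs of old 3 against 10359 to 15422 CPM in the other 5 libraries, and to 2237 CPM in FBs of old 3 against 9201 to 16145 CPM. Whether these genes and the ligands moved for the same reason was not tested.

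Cxcl3, Cxcl1 and Cxcl2 lie within chr5:90786103-90905938, with Cxcl15 between Cxcl3 and Cxcl1, and Cxcl10 further along the chromosome. In perivascular MΦs Cxcl10 was at 14.7 CPM in old 3 and from 26.8 to 1023 CPM in the other 5 libraries, so that Cxcl1, Cxcl2 and Cxcl10 were all lowest in old 3. Cxcl3, with 25 counts, was not detected by the limit used and is shown beside them. The 250 bases before their start sites (RefSeq, GRCm38.p6) were searched on both strands for the consensus site of NF-κB, the transcription factor of the inflammatory response. The site was present in 3.75% of 27025 promoters and in 8 of the 47 promoters of members that were matched by symbol (Ackr2, Ccl9, Ccl20, Ccr3, Cxcl1, Cxcl2, Cxcl3 and Cxcl10), 17%. The genes shown were chosen after their values were seen. Ccl9, another of the 8, is not shown and was at 920 ± 272 CPM (SD, n = 6) in perivascular MΦs. The following 30-base windows hold the site nearest the start of each gene, with the match in capitals, 5′ to 3′ in the direction of the gene.
Cxcl1, chr5:90891165-90891194, + strand: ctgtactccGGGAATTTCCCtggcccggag
Cxcl2, chr5:90903793-90903822, + strand: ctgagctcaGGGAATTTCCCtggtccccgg
Cxcl3, chr5:90786019-90786048, + strand: agctgcgggGGGAATTTCCCcagcccgggc
Cxcl10, chr5:92348973-92349002, − strand: cggtttacagGGGACTTCCCtcgggttgcg
The first 3 share the capital letters and match on both strands. These are matches of letters, and no binding was measured. The same window of Ccl8, of Ccl3 and of Cxcl15 held no match. Ccl4 and Ccl2, which were also lowest in old 3 in perivascular MΦs, had no promoter among the 47. Cxcl1, Cxcl2 and Cxcl3 are neighbours with the same matched letters, so that the 8 promoters are not independent cases. Whether the site has a part in these levels was not tested.

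**Figure D2:**
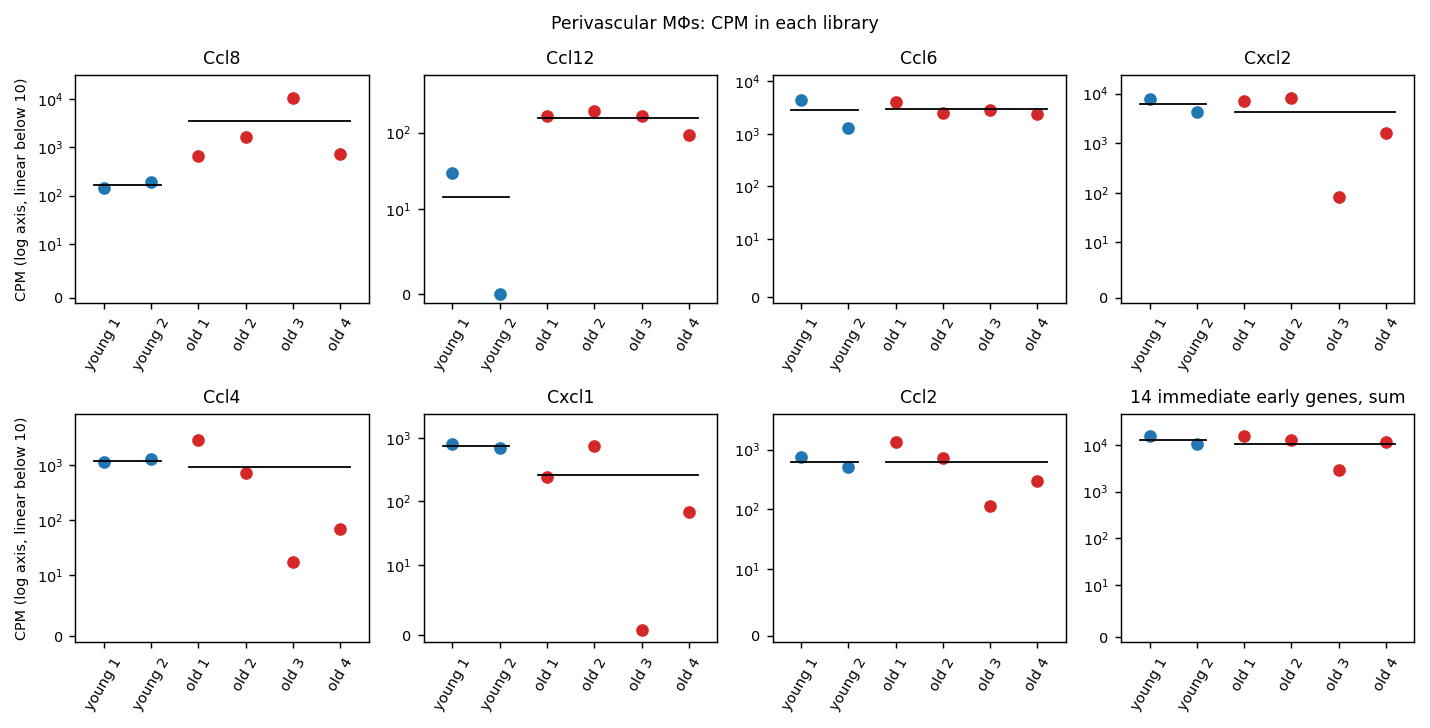
CPM in perivascular MΦs of each library (points, blue young, red old, black lines the group means) for 7 ligands and for the sum of 14 immediate early genes, on a log axis that is linear below 10. Ccl8 and Ccl12 are higher in all 4 old libraries than in young 1, while Cxcl2, Ccl4, Cxcl1, Ccl2 and the immediate early genes are lowest in old 3.

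FBs led the ligands Cxcl12, Ccl11, Ccl19 and Cxcl14 and the atypical receptors Ackr3, Ackr2 and Ackr1. Cxcl12, the ligand of Cxcr4 and of the scavenger Ackr3, was at 109.6 and 95.6 CPM in FBs of the young libraries and at 169, 246, 438 and 232 CPM in old 1 to old 4. The old FBs were above the young in every library, but the young values rest on 9 and 2 counts. Of the FBs, 88 of 94 in young 1, 28 of 29 in young 2 and 202 of 218 in old 2 lay in 1 cluster, 116 of 122 in old 1 in another, and most of those in old 3 and old 4 in further clusters without young cells. Ackr3 itself was at 1534 and 1481 CPM in young FBs and at 1128, 1227, 832 and 870.1 CPM in old ones, with all old libraries below the young. Ligand and scavenger were thus both highest in FBs, and Ackr3 was also at 666 CPM in LECs and 372 CPM in ECs. Ccl11 (eotaxin, a ligand of Ccr3) was at 487 and 143 CPM in young FBs and at 343, 276, 277 and 108 CPM in old ones, with overlap. Ackr2, which removes inflammatory C-C ligands, rested on 1 and 3 counts in young FBs, 12.2 and 143 CPM, and was at 69.1, 59.1, 30.2 and 24.3 CPM in old ones. Ackr1 was at 24.4 CPM on average, Cxcl14 at 34.3 CPM and Ccl19, a ligand of Ccr7, at 23.7 CPM.

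SMCs led 1 member, Ccl27a, at 40.03 ± 11.4 CPM (SD, n = 5). Its values were 47.9 and 41.8 CPM in young SMCs, from 1 count each, and 53.5, 25.9 and 31.2 CPM in old 1, old 3 and old 4. Old 2 had 5 SMCs and was left out. Of the SMCs, 22 of 23 in young 1 and 33 of 35 in young 2 lay in 1 cluster. It also held 89 cells of old 3 and 163 of old 4. This cluster had 10 of 10 fibroblast markers raised beside 9 of 9 smooth muscle markers. In old 1, 152 of 156 SMCs lay in another cluster, and most of those in old 3 and old 4 in further ones. Mesothelial cells led Cxcl13, which draws B cells through Cxcr5, by mean CPM alone. Their mean was 1021 ± 1662 CPM (SD, n = 6), and they were the highest type in 2 of their 6 libraries. Prg4 MΦs were close, at 913 ± 525 CPM (SD, n = 3), and perivascular MΦs held 275 CPM on average. In mesothelial cells Cxcl13 was at 1679.5 and 4142 CPM in the young libraries, where young 2 had 12 cells. It was at 294 CPM in old 2, 9.0 CPM in old 3 and 0 in old 1 and old 4. Counting error allows up to 14.7 and 4.92 CPM in old 1 and old 4. Ccl2 in mesothelial cells was likewise at 331 and 545 CPM in the young, 227 CPM in old 2 and 24.5, 5.0 and 0 CPM in old 1, old 3 and old 4. Both were higher in each of the 3 libraries with shared barcodes than in any of the other 3. Most mesothelial cells of old 3 and old 4 (115 and 75) lay in another cluster than those of the other 4 libraries.

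ECs led Cx3cl1, the membrane-bound ligand of Cx3cr1, at 58.1 ± 20.4 CPM (SD, n = 6), with 35.4 and 91.2 CPM in the young and 56.7, 64.4, 38.1 and 63.1 CPM in the old libraries. Those groups overlapped. Cxcl12 in ECs was at 17.7 CPM in young 1, 0 in young 2, and 38.0, 78.7, 175 and 112 CPM in old 1 to old 4. The young values came from 1 and 0 counts, and 0 counts in young 2 allow up to 68.4 CPM. Free RNA held Cxcl12 at 11.6 and 13.1 CPM in the young libraries and at 41.1, 12.9, 84.0 and 41.0 CPM in old 1 to old 4, which is above the EC level in old 1, and its part in the EC levels was not tested. LECs led Ccl21a, which draws cells with Ccr7 into lymphatics, at 679 CPM in old 3 and 2418 CPM in old 4. Its next type, ECs, held 4.78 CPM. The scavenger of this ligand, Ackr4, was also highest in LECs, at 297 and 241 CPM in the same libraries. Ccl25 followed in LECs at 34.5 and 50.6 CPM, with B cells second at 27.9 CPM.

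Lymphoid cells led 2 ligands. Ccl5 was at 2684 CPM in T/NK cells of young 1 and at 11756, 7993, 6780.1 and 3074 CPM in old 1 to old 4, while DCs came second at 144 CPM. Young 2 had no T/NK cells. Xcl1 followed at 169 CPM, against 0.32 CPM in the next type, mesothelial cells, and its receptor Xcr1 was highest in DCs at 133 ± 55.9 CPM (SD, n = 4), with 98.2 CPM in young 1 and 115, 216 and 102 CPM in old 2, old 3 and old 4. DCs also led Ccl17, a ligand of Ccr4, with 0 in young 1 and 22.9, 108 and 102 CPM in old 2 to old 4, and Cxcl9, a ligand of Cxcr3, with 98.2, 222, 3.48 and 6.0 CPM in the same order. The 2 DC clusters split the libraries, since one held 101 cells of young 1 and 112 of old 2 and the other 30 of old 3 and 20 of old 4. Airway cells led Cxcl17 at 271 and 336 CPM in the young and 185, 269, 189 and 232 CPM in the old libraries, followed by Cxcl5 and by Ccl20, the ligand of Ccr6. Ccl20 was at 46.5 and 18.6 CPM in the young and 3.24, 20.7, 0 and 2.21 CPM in the old libraries, with overlap.

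Receptors were concentrated in leukocytes. Ccr2 was highest in monocytes, with 935 CPM in old 2 and 1393 CPM in old 3, and nearly as high in Lyve1-low MΦs, with 946 and 1286 CPM in old 3 and old 4. Perivascular MΦs held less, 264 and 959 CPM in the young and 116, 323, 393 and 186 CPM in the old libraries, where the value of young 2 rests on 15 counts. Cx3cr1 was at 198 and 176 CPM in monocytes of old 2 and old 3. Its level in ECs, 15.1 to 72.9 CPM, and in SMCs, at most 47.9 CPM, was of the size of its free RNA level, 5.23 to 137 CPM.

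Neutrophils led Cxcr2, the receptor of Cxcl1 and Cxcl2, with 516 CPM in old 2 and 929 CPM in old 3. Monocytes came second at 7.26 CPM. Ccr1 and Cxcr4 were also highest in neutrophils, at 258 and 387 CPM in old 2 and 523 and 232 CPM in old 3. The ligand Ccl3 was led by the same cells, at 645 CPM in old 2 and 36.9 CPM in old 3, with perivascular MΦs second at 218 CPM. B cells led Ccr7, with 161 and 138 CPM in the young and 134, 9.44 and 40.9 CPM in old 2, old 3 and old 4, and Ccr6, with 53.4, 138, 36.0, 10.4 and 6.81 CPM in the same order. For both, young 2 gave 2 counts. Cxcr5 was second in B cells at 146 CPM, with 258 and 118 CPM in neutrophils of old 2 and old 3, from 4 and 32 counts. The neutrophil cluster also had 5 of 8 B cell markers raised, and the source of its Cxcr5 was not tested. T/NK cells led Cxcr6, the receptor of Cxcl16, with 24.9 CPM in young 1 and 201, 119, 291 and 692 CPM in old 1 to old 4. They also led Cxcr3, with 24.9 CPM in young 1 and 80.5, 11.9, 81.1 and 69.2 CPM in old 1 to old 4. In T/NK cells 3 counts would be 74.6 CPM in young 1, 120.8 CPM in old 1 and 17.8 CPM in old 2. Both young 1 values, and those of Cxcr3 in old 1 and old 2, thus rest on fewer than 3 counts. Cxcl16 was in turn highest in Lyve1-low MΦs, at 211 and 185 CPM in old 3 and old 4.

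Of 31 textbook pairs of a ligand and its receptor, both partners were detected in 26. The same type led both in 2 of these, Cxcl12 and Ackr3 in FBs and Ccl21a and Ackr4 in LECs, and in both the receptor is an atypical one. Myeloid types led both partners in 8 pairs, such as Ccl2 at 616 CPM in perivascular MΦs beside Ccr2 at 1164 CPM in monocytes, and Cxcl2 at 13717 CPM in Prg4 MΦs beside Cxcr2 at 723 CPM in neutrophils. A myeloid type led the ligand and a lymphoid type the receptor in 3 pairs, among them Cxcl16 at 198 CPM in Lyve1-low MΦs and Cxcr6 at 266 CPM in T/NK cells. Cxcl12 of FBs at 215 CPM met Cxcr4 at 309.7 CPM in neutrophils, and Cx3cl1 of ECs met Cx3cr1 at 187 CPM in monocytes. Ccl8 and Ccl11 were detected while their receptors Ccr8 and Ccr3, at 9 and 20 counts, were not. These are transcript levels side by side, and contact between the cells was not measured.

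Among genes of the same system that carry other names, Pf4 (platelet factor 4, itself a C-X-C chemokine) was highest in Prg4 MΦs at 5573 CPM and in perivascular MΦs at 1314 CPM. The decoy receptor gene Ccrl2 was led by Prg4 MΦs at 195 CPM, and the chemerin receptor Cmklr1 by Prg4 and perivascular MΦs at 100.4 and 80.5 CPM. Mif, a cytokine that also binds Cxcr4, was highest in B cells at 283 CPM.

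Old and young were then compared in the 7 types that had at least 10 cells in 2 young and at least 2 old libraries, with counts summed per library and type and fitted with edgeR. Libraries were the replicates. A gene was tested where over 5% of cells held a count in at least 3 libraries, so that a gene low in the young could pass through the old libraries. This was so for Ccl12 in perivascular MΦs, Cxcl12 in ECs, Cxcl5 in airway cells and Cxcl16 in FBs. Their 10, 1, 16 and 2 young counts were too few to reach 5% of cells in either young library. The filter thus favoured a higher old level for them. Their log2 fold changes and any unadjusted p-values below are no independent support for it. The filter let 31 of the 62 genes into at least 1 type and gave 55 tests, 19 in perivascular MΦs, 9 in FBs, 8 in airway cells, 7 in mesothelial cells, 5 in ECs, 4 in SMCs and 3 in B cells. No member passed an adjusted p under 0.05 (edgeR quasi-likelihood test, Benjamini-Hochberg over all genes tested in the type), and 7 of the 55 tests had an unadjusted p under 0.05. Over all genes, the share with an adjusted p under 0.05 was 0.0454% in FBs, 0.37% in mesothelial cells and 0% in the other 5 types. The share with an unadjusted p under 0.05 was 6.83% in FBs, 8.7% in SMCs, 6.8% in mesothelial cells, 5.88% in ECs, 6.19% in perivascular MΦs, 6.49% in B cells and 6.09% in airway cells. DESeq2 called 1 member, Ccl8 in perivascular MΦs, and the share of all genes it called there is not given. For any single value the exact permutation test of 2 young against 4 old libraries cannot give a p below 0.133. With 2 young libraries of low depth the design resolves only large differences, as the standard errors below show.

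In perivascular MΦs 2 of 19 members, Ccl8 and Ccl12, had an unadjusted p under 0.05, both higher in old. Ccl12 had passed the filter through the old libraries alone. Ccl8 had a log2 fold change, old over young, of 4.47 ± 1.45 (SE) with an adjusted p of 0.781, and Ccl12 one of 2.57 ± 0.77 with an adjusted p of 0.781, both by edgeR. Without old 3, the library with the most free Ccl8, the log2 fold change of Ccl8 was 2.80. In a fit with a term for the shared-barcode set (young 1, young 2 and old 2) it was 3.56 at an unadjusted p of 0.102 and an adjusted p of 1.00 (edgeR), and that of Ccl12 was 2.97. In that fit old 1, old 3 and old 4 all lie outside the set. Its age term thus compares old 2 alone with young 1 and young 2. With 1 library left out, Ccl12 ranged from 2.34 to 10.07, the highest without young 1, when the remaining young library held 0 counts. By DESeq2 the adjusted p of Ccl8 was 0.0256. Ccl2 in the same cells had a log2 fold change of 0.09 ± 0.90, Cxcl16 of 1.01 ± 0.72 and Ccr2 of −0.92 ± 0.64, and none of the 3 passed. The 19 members had a median log2 fold change of 0.09, beside 0.17 over all 5573 genes, with 12 above 0 and 7 below. The libraries were spread unevenly over the clusters of perivascular MΦs. In young 1, 104 and 82 of 336 cells lay in a pair of clusters that also held 49 and 43 of the 119 cells of old 2, and 149 lay in a cluster with 3 cells of old 2 and none of the other libraries. The largest cluster of old 1, old 3 and old 4 held 112 of 120, 250 of 433 and 169 of 222 cells of the library. Each of these clusters held 0 young cells. Other clusters with 0 young cells held a further 101 and 24 cells of old 3, 17 and 1 of old 4 and 7 of old 2. Young 2 held 22 of these cells, 15 of them in a cluster of low UMI content that had 104 cells in all, 53 of them from old 3.

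Cxcl12 had an unadjusted p under 0.05 (edgeR) in FBs and in ECs, but in ECs it had passed the filter through the old libraries alone. The EC value is thus no independent support for a higher old level. In FBs its log2 fold change was 1.44 ± 0.58 (adjusted p = 0.684, edgeR). In ECs it was 3.35 ± 1.15 (adjusted p = 0.828, edgeR), but the young ECs held 1 count. With the shared-barcode set as covariate the values were 1.48 in FBs and 3.14 in ECs, at an unadjusted p of 0.0602 and 0.0663 (edgeR), so that neither stayed under 0.05. That fit again sets old 2 alone against the young. With 1 library left out the log2 fold changes ranged from 1.17 to 1.89 in FBs. In ECs they ranged, where a fit was made, from 2.43 (without young 2) to 9.87 (without young 1). In FBs the log2 fold change was 1.07 with cells thinned to 500 UMIs and 1.14 without old 3 and old 4. The unadjusted p was then 0.136 and 0.119 (edgeR). In ECs Cxcl12 did not pass the filter in either setting. The ratio of summed CPM, 12.1, had a 95% counting interval of 2.17 to 480.4, which covers counting error only. In SMCs, where the young held 2 counts, the log2 fold change was 0.40 ± 1.15 and the ratio of CPM was 0.72, with an interval of 0.199 to 5.95. Most young SMCs lay in the cluster that also had fibroblast markers raised. The young ECs, and those of old 1 and old 2, lay mostly in 1 cluster (80, 60, 668 and 194 cells), and those of old 3 and old 4 in another (552 and 231 cells). Cxcl12 was the 1 of 9 members in FBs, and the 1 of 5 in ECs, with an unadjusted p under 0.05. Ackr3 had a log2 fold change of −0.41 ± 0.44 in FBs and −0.11 ± 0.65 in ECs, Ackr2 of 0.01 ± 1.01 in FBs, and Cxcl16 of 0.63 ± 0.90 in FBs, 0.39 ± 0.61 in mesothelial cells and −0.42 ± 0.51 in ECs. The young FBs held 2 counts of Cxcl16, and the ratio of CPM, 1.67, had an interval of 0.459 to 13.9. In FBs the median over the 9 members was 0.01 and over all genes 0.25, and in ECs −0.12 over 5 members and 0.18 over all genes.

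In airway cells Cxcl5 and Ackr3 had an unadjusted p under 0.05. Cxcl5, a neutrophil ligand, was at 6.06 and 11.5 CPM in the young libraries and 110.3, 75.3, 15.8 and 52.3 CPM in old 1 to old 4. All old values were above the young, with a log2 fold change of 2.66 ± 0.83 (adjusted p = 0.774, edgeR) and 3.07 within the covariate fit. Ackr3 was at 28.3 and 17.7 CPM in the young and 12.97, 12.5, 6.30 and 13.2 CPM in the old libraries, with a log2 fold change of −1.02 ± 0.42 (adjusted p = 0.774, edgeR). With the covariate it was −0.70 at an unadjusted p of 0.206 (edgeR). Its free RNA level was above these values in every library, up to 107 CPM. Cxcl16 had a log2 fold change of −0.56 ± 0.39.

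In B cells Cxcr5, the receptor of Cxcl13, was at 59.7 CPM in young 1, 0 in young 2, and 94.4, 149 and 429 CPM in old 2, old 3 and old 4. Old 1 had 9 B cells and was left out. Its log2 fold change was 1.90 ± 0.73 (adjusted p = 0.701, edgeR), and 0.88 with the covariate, at an unadjusted p of 0.254. The covariate fit again sets old 2 alone against the young. With 1 library left out, the log2 fold change of Cxcr5 ranged from 1.16 (without old 4) to 10.26 (without young 1). In young 2, 0 counts of 14466 UMIs allow up to 207 CPM. The B cells of young 1, old 2 and old 3 lay in 3 different clusters (1056, 906 and 251 cells). In mesothelial cells no member had an unadjusted p under 0.05. Ccl2 had a log2 fold change of −2.69 ± 2.17 and an adjusted p of 0.984 by edgeR, and Cxcl13 one of −4.86 ± 2.42 and an adjusted p of 0.883. Without old 2, Ccl2 and Cxcl13 reached −5.73 and −8.79 and an adjusted p of 3.3e-12 and 2.7e-17 by edgeR. In that fit the shared-barcode set is the young group itself, so that age and set cannot be told apart. Young 2 gave 12 mesothelial cells with 9175 UMIs. With the covariate, which leaves old 2 alone against the young, Ccl2 was at −0.44. Leaving out old 2, the 1 old library that shares barcodes with both young ones, thus changed the call on both genes.

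**Figure D3:**
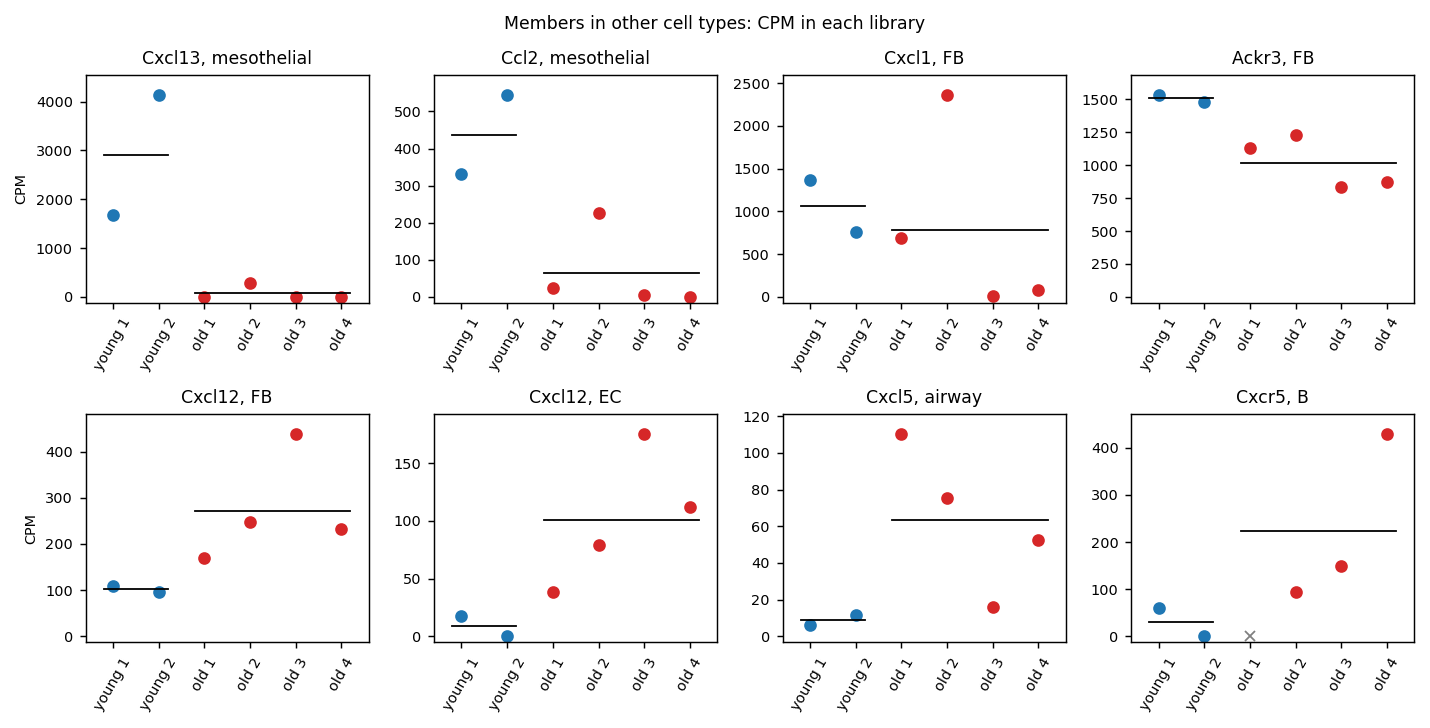
CPM in each library (points, blue young, red old, black lines the group means, a grey cross a library with fewer than 10 cells of the type) for 8 combinations of gene and type. Cxcl13 and Ccl2 of mesothelial cells are high in young 1, young 2 and to a lesser extent old 2, Cxcl12 of FBs and Cxcl5 of airway cells are higher in all 4 old libraries than in both young ones, and Ackr3 of FBs is lower. Cxcl12 of ECs rests on 1 and 0 counts in the young, where 0 allows up to 68.4 CPM.

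**Figure D4:**
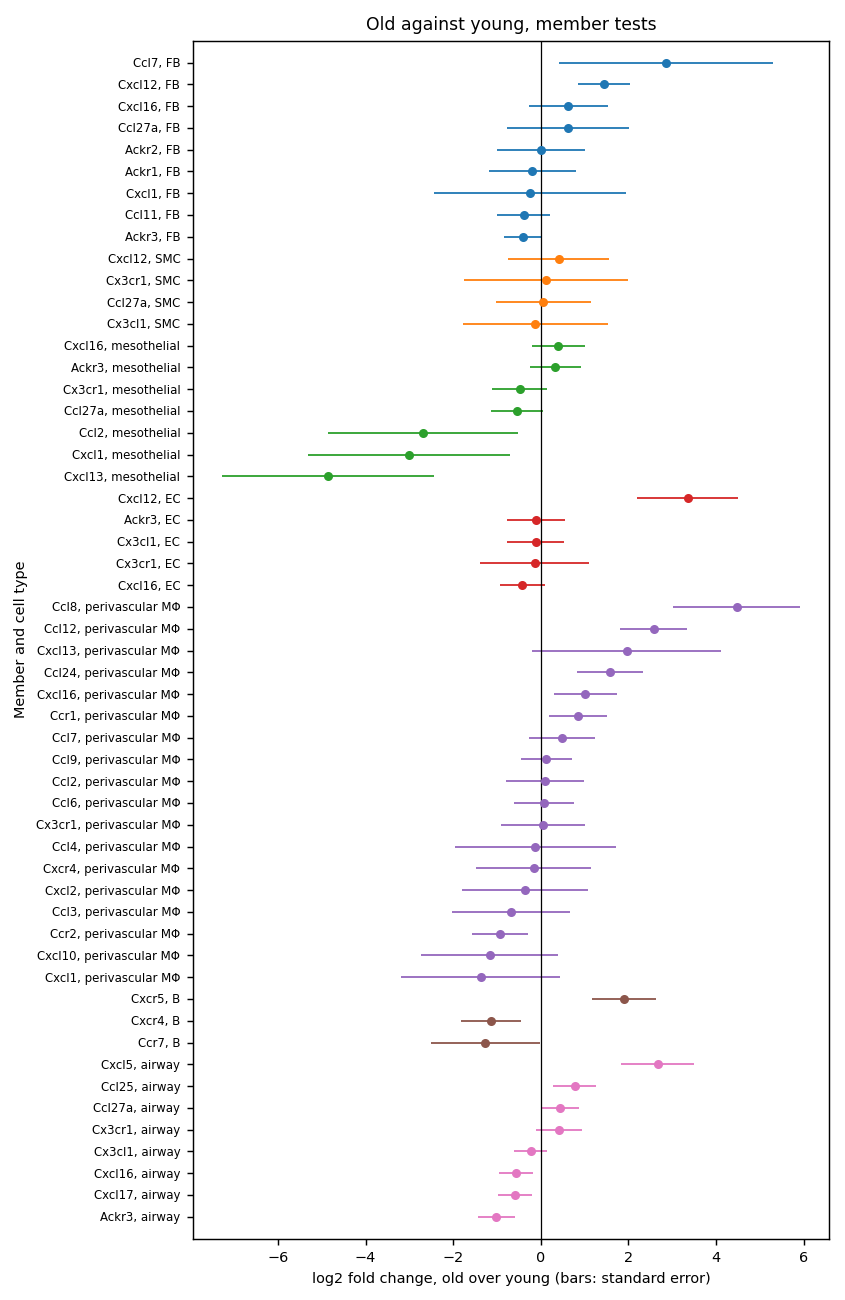
Log2 fold change, old over young, with its standard error for 54 of the 55 member tests (rows, coloured by cell type). Most bars cross 0, and the values range from −4.86 for Cxcl13 in mesothelial cells to 4.47 for Ccl8 in perivascular MΦs.

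Of 32 signalling partners of the receptors (G protein subunits, arrestins, receptor kinases, Rgs proteins and effectors such as Rac2 and Pik3cg that move leukocytes), 27 were tested in perivascular MΦs. None had an adjusted p under 0.05 there by edgeR, and none an unadjusted p under 0.05. Their median log2 fold change was −0.06, beside 0.17 over all genes. In the other 6 types 12 to 15 were tested, none passed the adjusted p, and the count with an unadjusted p under 0.05 was 1 in SMCs, 1 in mesothelial cells, 2 in airway cells, all higher in old, and 0 in FBs, ECs and B cells. Of the 14 immediate early genes all were tested in perivascular MΦs, with a median log2 fold change of 0.17 and an unadjusted p under 0.05 for 1.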

How the data were processed

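Per the labels, the authors used cutadapt, STAR and STARsolo with GRCm38.p6. They deposited raw UMI counts for every barcode and gene, without filtering or normalization. Genes carry the deposited symbols. Without their version suffix, 52093 of 53647 identifiers matched GENCODE M21, from which positions were taken. Here, doublets were marked per library with scrublet, through scanpy 1.11.5, by its threshold in 2 libraries and, where this marked too few, by the highest scores up to a rate of 0.8% for each 1000 barcodes in the other 4. Cells of all libraries were clustered with 15 neighbours on 40 principal components of 2000 variable genes by leidenalg 0.10.2 at a resolution of 1.0, without the members and without batch correction. Myeloid, fibroblast and T cell clusters were clustered again. Clusters were named by hand from fixed marker lists, where members of a list were raised over the median cluster. Counts were summed per library and type (at least 10 cells) and fitted with edgeR 4.0.16 (TMM, robust quasi-likelihood F test, Benjamini-Hochberg, adjusted p under 0.05) in R 4.3.3, old minus young, with no covariate. Standard errors were the log2 fold change over the square root of F. DESeq2 1.42.0 and other settings were alternatives. The model was run on simulated data with a fixed spread between libraries and large changes in the more abundant genes alone. That run says nothing on members with few counts. Where young cells held 0 to 3 counts of a named gene, a ratio of summed CPM with an exact 95% interval is given, and a count of 0 was read as allowing 3 counts. Named with levels were detected members, with each library for the 3 with the most counts per leading type and for 7 genes the study names. Named with a fold change were members with an unadjusted p under 0.05 and those 7 where tested. Other genes shown by library (Ccl4, Ccl12, Ccl24, Cxcl5 and Cxcr5 among them) were added after their values were seen. One detected member is counted in the totals but is not reported here by name or plotted. Members and lists were chosen with earlier results of these data known. Libraries come from separate samples in the labels, and p-values measure the spread between them. The fits take them as independent. Whether this holds for young 1, young 2 and old 2, which share barcodes, was not tested.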

Additional observations from a re-analysis of the deposited data

Results flagged for a closer look

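In 8 of the combinations of tested member and cell type with 4 old libraries, 1 old library stood far from the other 3 by Dixon's test at the 95% level. Chance alone flags about 1 in 20 such groups, and 48 groups were examined. The value of Ccl8 in perivascular MΦs of old 3 was 10750.9 CPM, against 676 to 1663.6 CPM in the other old libraries. In mesothelial cells old 2 stood apart upward for Ackr3 (206.9 CPM), Cxcl1 (140.1 CPM), Cxcl13 (293.6 CPM) and Ccl2 (226.9 CPM), and in ECs it did so for Ackr3 (780.1 CPM against 198.3 to 249.7 CPM). Old 1 stood apart for Cx3cr1 in ECs (72.9 CPM). Old 3 was low for Ackr3 in airway cells (6.3 CPM, from 2 counts). Old 2 is the old library that shares barcodes with both young ones. What sets these libraries apart was not tested.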

How the results depend on the processing

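No member was called in any of the 7 types by the main test. With no filter on low counts the number of members called was 2 in mesothelial cells (Cxcl2 and Ccl24, lower in old). It was 2 in perivascular MΦs (Ccl8 higher, Ccl5 lower) and 1 in airway cells (Cxcl5, higher). With DESeq2 it was 1 in perivascular MΦs (Ccl8). Ccl5 averaged 17.9 CPM in perivascular MΦs, below its mean of 62.6 CPM in free RNA. Free Ccl5 was at 61.4 and 179.8 CPM in the young and 24.1, 54.4, 51.1 and 4.70 CPM in old 1 to old 4. Its part in the call was not tested. Leaving out 1 library gave 0 to 2 in mesothelial cells and 0 to 1 in B cells, in both cases the higher count without old 2 (Ccl2 and Cxcl13, and Ccr7), and 0 in the other types. Without old 2, age and the shared-barcode set cannot be told apart. The share of all genes called in these alternative fits is not given here. The counts of members called thus cannot be set against it. Ccl8 kept its direction in all 16 alternatives, with an adjusted p of 3.0e-04 to 1.00, and Ccl12, Cxcl5, Ackr3 in airway cells and Cxcr5 kept theirs in all 15, 15, 12 and 14. The log2 fold change of Ackr2 in FBs turned to −0.068 with DESeq2, −0.11 without TMM, −0.028 with doublets kept, −0.081 without shared barcodes, and ranged from −1.38 to 1.66 with 1 library left out, −1.38 without young 1, −0.33 without old 1 and −0.19 without old 2. Cxcl16 in FBs turned to −0.28 without young 1, in a range of −0.28 to 1.21 over libraries left out. It passed the filter in the fits without young 1, young 2 or old 2, and was not tested without old 1, old 3 or old 4. Cxcl12 in SMCs turned to −0.017 without TMM and −0.58 without young 1 (range −0.58 to 11.35), and Ccl2 in perivascular MΦs to −0.079 without TMM, −0.25 without young 2 and −0.63 without old 1 (range −0.63 to 0.76). The cause was not tested. Among the alternatives, the age term of the covariate fit rests on old 2 as its only old library. Cells thinned to 500 UMIs left 33 detected members, with 3 ligands and 1 receptor led by stromal types, 1 ligand by epithelial and 0 receptors by endothelial types. Receptors led by endothelial types numbered 2 with at least 1000 UMIs and 500 genes and 3 with counts summed over libraries. With 1 library left out they numbered 0 to 2, and receptors led by lymphoid types 4 to 7 (7 without old 2) and by stromal types 2 to 5 (5 without old 3). The filter of 1000 UMIs left 1 type, airway cells, that could be fitted, and the covariate could not be fitted in SMCs. Cluster borders also shifted with the arithmetic of the approximate neighbour search, and levels under those clusters were not computed. No paired analysis was possible because the groups share no pairing of animals. Depth was a limit: young libraries gave 20891 and 23951 UMIs of SMCs and 15639 UMIs of perivascular MΦs in young 2.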
